A study of Mus musculus with 20 samples.

Results

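The effect of the R47H substitution in Trem2 was examined in mouse macrophages in which most of the Trem2 mRNA remained. Of 20 RNA-seq libraries, the 10 used for the comparison are the 5 from mice with R47H knocked into Trem2 (R47H Rep1 to Rep5) and 5 wild-type libraries (WT Rep6 to Rep10). The other 10 are 5 wild-type libraries (WT Rep1 to Rep5) and 5 from a Trem2 knockout that the labels give as 5bp KO (KO Rep1 to Rep5). They enter only where R47H is set beside KO or beside the other wild types. All 20 mice were C57BL/6 and aged 4 to 5 months, per the labels. Bone marrow cells were grown in CSF-1 at 50 ng/ml, which drives marrow precursors to become macrophages, and harvested on day 6. The labels name no other treatment. The protocols tell R47H mice apart from heterozygotes and name the former as the RNA source, while the sample labels give the genotype as TREM2 R47H KI without stating the number of alleles. The protocols also give 5 animals per genotype with wild-type littermates, without saying which wild types belong to which line. WT Rep6 to Rep10 were used because the numbers in the deposited tables' names run from 1389 to 1407 for them and from 1408 to 1440 for R47H, against 1116 to 1146 for KO and WT Rep1 to Rep5.

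Trem2 is a receptor of macrophages and microglia that binds lipids and lipoproteins. It has no signalling tail of its own and works through the adaptor Tyrobp (DAP12), which recruits the kinase Syk. In macrophages from bone marrow, Trem2 and CSF-1 signalling both bear on survival and proliferation. R47H replaces an arginine of the extracellular immunoglobulin domain by histidine, and the same change in human TREM2 is associated with Alzheimer's disease.

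The substitution lies in exon 2 of 5 coding exons of Trem2. The wild-type reference coding sequence of the GENCODE transcript, codons 37 to 57 of 227 counted with the stop codon left out, is shown because codon 47 is the residue that was changed. Its 3 bases, in capitals, encode arginine and lie at chr17:48348555-48348557 on the plus strand of GRCm38.
Trem2 codons: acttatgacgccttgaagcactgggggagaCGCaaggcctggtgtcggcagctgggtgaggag
The base change made in the mice, and any silent change made with it, is given by none of the sources used.

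The labels do not give the sex of the mice, and it was read from transcripts. Xist, the RNA of the inactive X chromosome, marked 4 of the R47H libraries (Rep1 to Rep4) and 1 wild type (Rep10). Transcripts of 4 Y-linked genes marked 4 wild types (Rep6 to Rep9) and 1 R47H library (Rep5). Sex therefore nearly followed genotype, and only R47H Rep5 and WT Rep10 separate them. Each fit was repeated with Xist or Y status as a covariate in these 10 libraries, and again with that covariate in all 20 libraries, where KO (4 Xist, 1 Y) and WT Rep1 to Rep5 (3 Xist, 2 Y) add to it. Libraries correlated at 0.980 to 0.991 within R47H, 0.987 to 0.995 within wild type and 0.969 to 0.986 between them (Pearson, log2 values, 10802 genes). As a measure of depth, a gene of 2 kb at 1 FPKQ held about 63.4 ± 6.01 fragments in wild type and 53.3 ± 3.70 in R47H (SD, n = 5 each).

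Trem2 mRNA itself remained at 84.3% of the wild-type mean. Its level was 809, 751, 858, 761 and 691 FPKQ in WT Rep6 to Rep10 and 673, 772, 794, 496 and 527 FPKQ in R47H Rep1 to Rep5, where FPKQ is the authors' length-scaled expression unit. The groups overlap: R47H Rep2 and Rep3 lie within the wild-type range, R47H Rep1 lies just below it, and R47H Rep4 and Rep5 lie lowest. The difference was -0.27 ± 0.13 on the log2(FPKQ + 1) scale (SE; limma adjusted p = 0.208; exact two-sided permutation p = 0.135 over 252 splits), so it did not pass. Against WT Rep1 to Rep5 (814, 813, 901, 802 and 860.4 FPKQ) R47H lay lower in 5 of 5 libraries, at 77.8% of that mean (-0.39; limma adjusted p = 0.059, which did not pass; exact permutation p = 0.00794, the smallest that 5 against 5 can give). With sex as a covariate the difference from WT Rep6 to Rep10 was -0.31 (limma adjusted p = 0.374). It was -0.04 among the 5 libraries with Xist, where WT Rep10 was the only wild type. Among the 5 with Y-linked transcripts it was -0.59, where Rep5 was the only R47H library. Since each value rests on a single library of a genotype, whether the difference varied with sex cannot be read from them. Without R47H Rep4 the difference from WT Rep6 to Rep10 was -0.18 (limma adjusted p = 0.359). In KO, Trem2 reads were at 24.1, 23.7, 24.8, 24.1 and 23.8 FPKQ, far below every R47H library.

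**Figure D1:**
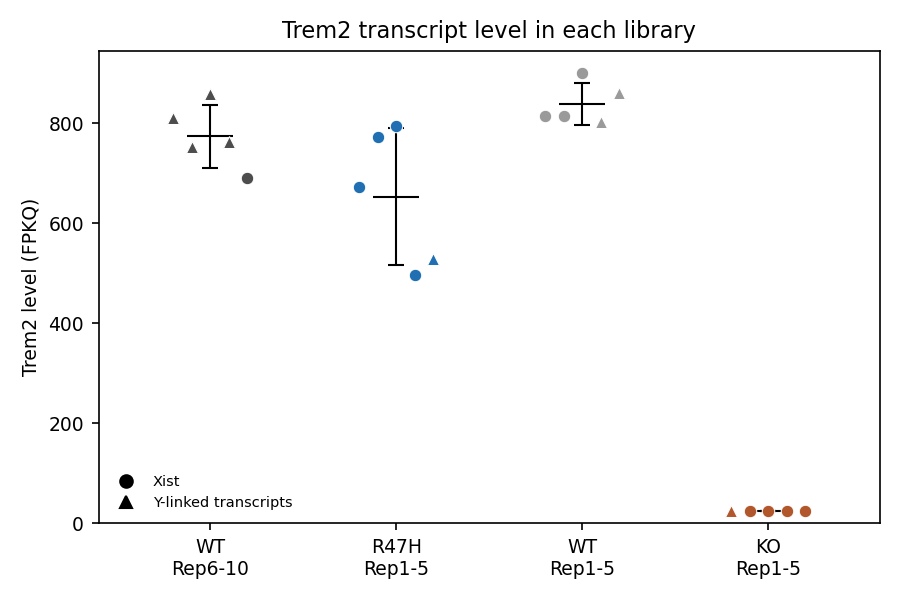
Trem2 level in FPKQ (vertical axis, from 0) in every library by group, with the group mean (bar) and SD (error bar, n = 5). Circles are libraries with Xist and triangles those with Y-linked transcripts. R47H Rep1, Rep4 and Rep5, at 673, 496 and 527 FPKQ, lie below all wild types, and the other 2 R47H libraries reach up to 794.

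Across 10802 tested genes (mean of at least 1 FPKQ in the 10 libraries), 1606 passed limma's test at an adjusted p under 0.05, which is 14.9%. Of these, 920 rose (8.52%) and 686 fell (6.35%), and in 1215 of the 1606 the values of the 5 R47H and 5 wild-type libraries did not overlap, a pattern that 12.9% of all tested genes showed. The counts given below for gene lists are to be read beside these shares. The changes were mostly small: 156 genes rose and 263 fell by at least 1.5-fold, and 29 rose and 48 fell by at least 2-fold. The balance of rises and falls depends on scaling. Setting every library to an equal sum of FPKQ moved the median of all genes by -0.11 and gave 390 rises and 1202 falls, median-ratio scaling gave 694 and 836, and quantile normalization gave 764 and 833. With sex as a covariate in the 10 libraries, 339 genes rose (3.14%) and 364 fell (3.37%), and 691 of the 1606 calls remained in the same direction. With that covariate in all 20 libraries, 966 rose (8.94%) and 772 fell (7.15%), where the same fit of 20 libraries without it gave 1361 and 922. The calls also depend on the controls. Against WT Rep1 to Rep5, 1069 genes rose and 613 fell. Of the 1606 calls, 898 remained called in the same direction there, and 78 had the opposite sign.

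Genes of cell division fell. In the list for mitosis (G2 and M phase), 29 of 30 tested members fell, with a median log2 difference of -1.002 beside 0.04 over all tested genes. In the S phase and DNA replication list, 28 of 30 fell (median -0.69), and in the list for G1 and growth factor entry 10 of 19 fell (median -0.24). No member of the 3 lists rose. With sex as a covariate, 29, 23 and 7 members fell. Against WT Rep1 to Rep5 the medians were -0.97, -0.71 and -0.13.

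Cyclin B2 (Ccnb2), a cyclin that drives entry into mitosis, stood at 23.8, 23.4, 25.7, 18.4 and 19.2 FPKQ in WT Rep6 to Rep10 and at 11.2, 6.19, 8.10, 7.99 and 6.47 FPKQ in R47H Rep1 to Rep5. The highest R47H library, Rep1, lay below the lowest wild type, and the difference was -1.38 ± 0.14 (SE; limma adjusted p = 0.000151). Cyclin A2 (Ccna2), needed in both S phase and mitosis, fell by 1.30 (adjusted p = 9.74e-05). Mki67, the antigen used to stain cycling cells, differed by -1.16 (adjusted p = 0.000166), Top2a, the topoisomerase that untangles replicated chromosomes, by -1.19 (adjusted p = 0.000294), and Birc5, the survivin subunit of the chromosomal passenger complex, by -1.25 (adjusted p = 0.00119). The spindle and kinetochore genes Prc1, Ndc80 and Ttk fell by 1.11, 0.98 and 0.96, and Ube2c, which supplies ubiquitin to the anaphase-promoting complex, by 1.28. In every one of these genes the R47H libraries lay below all 5 wild types.

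In the replication list, Mcm5, a subunit of the helicase that opens replication origins, stood at 26.2, 25.5, 28.0, 26.1 and 22.99 FPKQ in WT Rep6 to Rep10 and 15.5, 12.2, 15.2, 12.7 and 12.8 FPKQ in R47H Rep1 to Rep5. The groups lay far apart, with a difference of -0.87 ± 0.08 (SE; limma adjusted p = 8.13e-05). Its partners Mcm6 and Mcm7 fell by 0.69 and 0.85. Rrm2 and Tk1, which supply deoxynucleotides, fell by 1.22 and 1.07. Outside that list, Pclaf, the PCNA-associated factor, fell by 1.38.

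Upstream, the results for G1 genes depended on which wild types were used. Ccnd1, the D-type cyclin induced by growth factors, was at 72.9, 79.4, 70.2, 71.7 and 63.0 FPKQ in WT Rep6 to Rep10 and 42.3, 30.1, 40.2, 39.4 and 32.4 FPKQ in R47H. These groups do not overlap (-0.94 ± 0.10, SE; limma adjusted p = 0.000151). WT Rep1 to Rep5, however, held 42.8, 43.8, 38.3, 49.1 and 47.3 FPKQ, and against them the difference was -0.26 (adjusted p = 0.0993). Myc, the growth-promoting transcription factor, showed the same dependence. It was at 20.03 ± 2.82 FPKQ in WT Rep6 to Rep10, 9.94 ± 1.49 in R47H and 9.87 ± 1.07 in WT Rep1 to Rep5 (SD, n = 5), with differences of -0.94 (adjusted p = 0.000272) and 0.00175 (adjusted p = 0.994). By contrast Ccne1 and Ccne2, the E-type cyclins of the step from G1 to S phase, fell by 0.71 and 0.98 and kept their calls against either set. The inhibitors Cdkn1a and Cdkn1b did not pass (differences -0.08 and 0.02), nor did Cdk4 (-0.07).

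**Figure D2:**
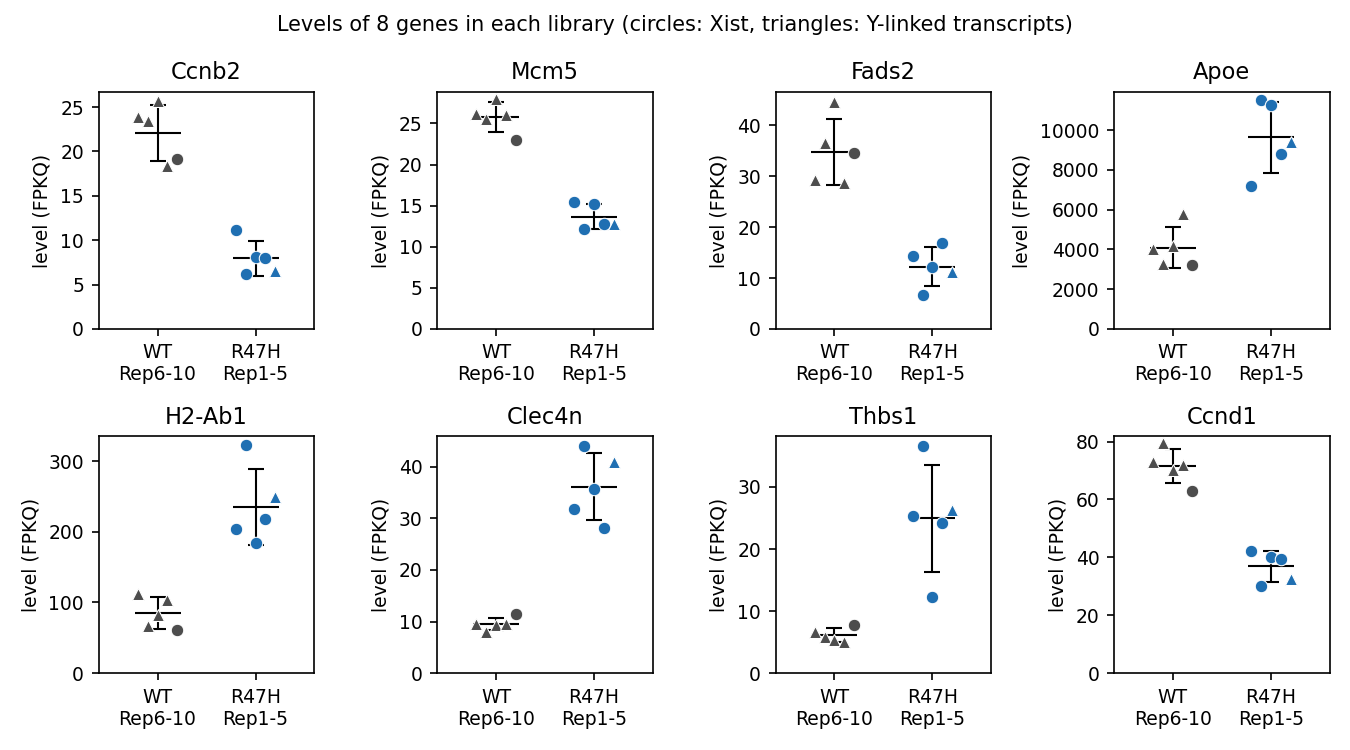
Levels in FPKQ (vertical axes, from 0) of 8 genes in the 5 WT Rep6 to Rep10 and 5 R47H libraries, with group mean and SD (n = 5 each). In all 8 panels the 2 groups do not overlap, with R47H Rep5 (Y-linked transcripts) and WT Rep10 (Xist) included. Lack of overlap was required of genes named for the largest changes, such as Clec4n, Thbs1, H2-Ab1 and Apoe. For these it was set by the choice of genes. All 8 were picked for their differences between these groups, so the panels cannot tell genotype from sex.

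Many genes of mitosis are regulated through promoter elements named CHR (TTTGAA or TTTAAA) and through CCAAT boxes, and many of replication through E2F sites such as TTCCCGCC. Promoters from RefSeq (GRCm38.p6; 250 bases before to 50 after the start) were found for 26 of the 30 G2 and M phase genes and 8327 of all tested genes, and both strands were searched. TTTGAA occurred in 20 of the 26 (76.9%) beside 14.4% of all tested genes, TTTAAA in 8 (30.8% beside 10.7%) and CCAAT in 22 (84.6% beside 43.5%). TTCCCGCC occurred in 7 of 25 S phase promoters (28.0%) beside 4.95%. These are counts of letters and show no binding. The 250 bases before the start of Ccnb2 are shown because that gene had the largest fall of the list, at chr9:70421555-70421804, minus strand, with its 3 CCAAT boxes and 1 TTTGAA in capitals.
Ccnb2: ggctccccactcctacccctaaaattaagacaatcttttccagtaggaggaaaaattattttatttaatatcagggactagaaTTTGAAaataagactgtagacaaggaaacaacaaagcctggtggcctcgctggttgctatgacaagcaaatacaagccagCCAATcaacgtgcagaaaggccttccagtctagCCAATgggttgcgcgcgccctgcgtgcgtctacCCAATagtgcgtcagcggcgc

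Genes of sterol synthesis fell. Of 23 tested genes of cholesterol synthesis and uptake, 19 fell and none rose (median -0.50), and 16 fell with sex as a covariate. Against WT Rep1 to Rep5 the median was -0.37 and 16 fell. The genes cover the path from acetyl units to cholesterol: Hmgcs1, Idi1 and Fdps of the isoprenoid steps, Sqle, which makes squalene epoxide, and Cyp51, Msmo1 and Sc5d of the sterol steps. Idi1, the isomerase of isopentenyl diphosphate, was at 67.9, 71.5, 74.3, 51.5 and 79.8 FPKQ in WT Rep6 to Rep10 and 40.2, 29.6, 40.2, 43.6 and 32.6 in R47H Rep1 to Rep5. All 5 R47H values lie below the wild types (-0.87 ± 0.13, SE; limma adjusted p = 0.000918; -0.49 against WT Rep1 to Rep5). Cyp51 and Sqle fell by 0.77 (adjusted p = 0.00181) and 0.77 (adjusted p = 0.00191), and Hmgcs1 by 0.48 (adjusted p = 0.0152), with values that overlap between groups.

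Sterol genes are regulated by SREBP through sterol response elements such as CACCCCAC, with CCAAT boxes nearby. CCAAT was present in 16 of 16 promoters found for the list, beside 43.5% of all tested genes, and CACCCCAC in 1 of 16 (6.25%, beside 3.67%). That one is Hmgcs1, shown for this reason (chr13:119690101-119690350, plus strand), with the 3 CCAAT boxes, which read ATTGG on the printed strand, and the 1 CACCCCAC in capitals.
Hmgcs1: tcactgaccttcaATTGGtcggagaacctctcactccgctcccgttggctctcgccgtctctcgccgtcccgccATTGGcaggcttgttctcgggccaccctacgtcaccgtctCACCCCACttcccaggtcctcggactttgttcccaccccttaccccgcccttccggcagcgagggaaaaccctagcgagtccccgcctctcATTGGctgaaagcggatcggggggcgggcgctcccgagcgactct

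Fatty acid genes fell in part. In that list 8 of 18 fell and none rose (median -0.22), and the largest falls were in desaturases. Fads2, the delta-6 desaturase that starts the making of long polyunsaturated fatty acids, was at 29.4, 36.6, 44.6, 28.6 and 34.6 FPKQ in WT Rep6 to Rep10 and 14.3, 6.62, 12.2, 16.9 and 11.2 FPKQ in R47H. The groups lie far apart at -1.47 ± 0.20 (SE; limma adjusted p = 0.000530), and at -0.94 against WT Rep1 to Rep5. The stearoyl-CoA desaturases Scd1 and Scd2, which make monounsaturated fatty acids, fell by 1.48 (adjusted p = 0.000218) and 1.10 (adjusted p = 0.00326). Acly, Acaca and Fads1 of the same list did not pass (differences -0.22, -0.18 and -0.20).

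In the list for lipid efflux and storage 10 of 23 rose, 1 fell and 12 did not pass (median 0.17), and 6 rose with sex as a covariate. Apoe, the apolipoprotein that carries lipid out of macrophages and a ligand of Trem2, was at 3997, 3269, 4174, 5763 and 3199 FPKQ in WT Rep6 to Rep10 and 7199, 11490.3, 11252, 8776 and 9419 FPKQ in R47H Rep1 to Rep5. Every R47H library lay above every wild type (1.25 ± 0.18, SE; limma adjusted p = 0.000679). Against WT Rep1 to Rep5 Apoe rose by 0.86. Its chromosomal neighbour Apoc2, the activator of lipoprotein lipase, rose by 1.04 (adjusted p = 0.000253), and Nr1h3, the oxysterol receptor LXR-alpha, by 0.59 (adjusted p = 0.00490). Abca1, the cholesterol exporter and an LXR target, was at 19.6 ± 4.39 FPKQ in WT Rep6 to Rep10, 30.8 ± 5.11 in R47H and 31.2 ± 3.02 in WT Rep1 to Rep5 (SD, n = 5). It rose by 0.63 (adjusted p = 0.0105) against the first set and differed by -0.03 (adjusted p = 0.876) from the second; the call was also lost with equal sums. The same was true of Mylip, an LXR-induced ubiquitin ligase, at 0.68 (adjusted p = 0.000906) and 0.15 (adjusted p = 0.258). Lpl, lipoprotein lipase, was the member that fell (-0.51, adjusted p = 0.0104), and its call was lost with sex as a covariate (adjusted p = 0.0771), against WT Rep1 to Rep5 (-0.23, adjusted p = 0.130) and with no filter on low values. Plin2, the coat protein of lipid droplets, and Cd36, the fatty acid transporter, did not pass (0.07 and -0.24).

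**Figure D3:**
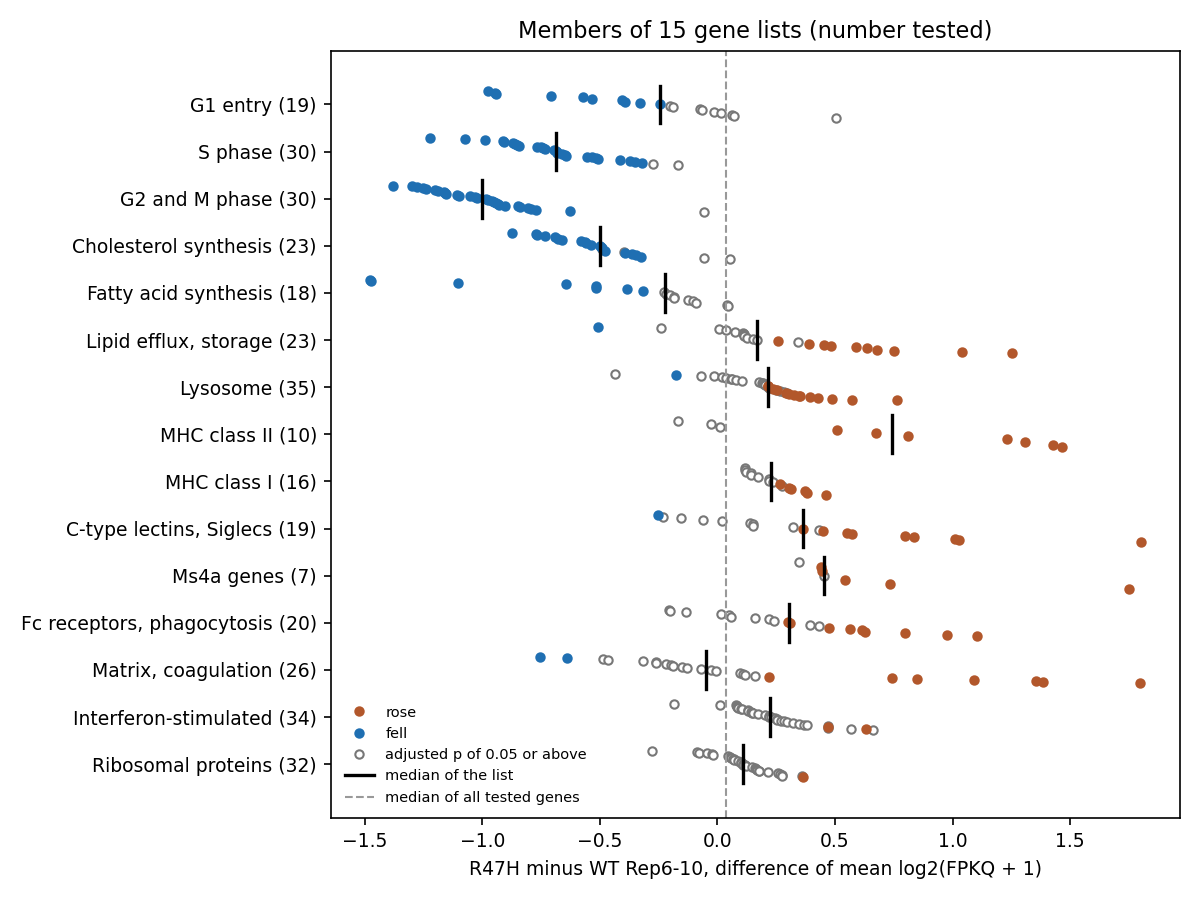
Differences between R47H and WT Rep6 to Rep10 (horizontal axis, mean log2(FPKQ + 1)) for the tested members of 15 gene lists, 1 point a gene, with the list's median (bar) and the median of all tested genes (dashed). Filled points passed at an adjusted p under 0.05; the G2 and M phase list has 29 of 30 below 0 and filled, and the MHC class II list 7 of 10 above 0 and filled.

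MHC class II genes rose as a group. MHC class II molecules present peptides from the endosome to CD4 T cells, and the transactivator Ciita switches on their genes. Of 10 tested members, 7 rose and none fell (median 0.74), with the same count when sex was a covariate. H2-Ab1, a beta chain, was at 112, 67.3, 81.7, 104 and 61.0 FPKQ in WT Rep6 to Rep10 and 203, 322, 184, 218 and 249 FPKQ in R47H Rep1 to Rep5. The groups do not overlap, and the difference was 1.47 ± 0.18 (SE; limma adjusted p = 0.000359). H2-Aa and H2-Eb1, the other chains, rose by 1.43 and 1.31, Cd74, the invariant chain that guides them to the endosome, by 1.23, and H2-DMa, which loads the peptide, by 0.81. Against WT Rep1 to Rep5 the differences were 0.73, 0.88, 0.77, 0.79 and 0.42, and each passed. Ciita rose by 0.68 (adjusted p = 0.0171) from a low level of 2.34 ± 0.585 FPKQ, and did not pass against WT Rep1 to Rep5 (0.31, adjusted p = 0.216), with libraries set to equal sums or with no filter on low values. Rfx5, Rfxap and Rfxank, the constitutive factors that bind the class II promoter, did not pass (-0.03, -0.17 and 0.01). Reads of H2 genes can be shared between similar copies, so their single levels are uncertain.

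Class II promoters carry an X box, whose core is CTAGCAAC in some genes, and a Y box, an inverted CCAAT. All 6 promoters found held CCAAT on either strand, and CTAGCAAC was in 1 of 6 (16.7%, beside 1.39% of all tested genes), and that one, H2-Eb1, is shown for this reason (chr17:34305617-34305866, plus strand). The 2 CCAAT boxes, on either strand, and the 1 CTAGCAAC are in capitals.
H2-Eb1: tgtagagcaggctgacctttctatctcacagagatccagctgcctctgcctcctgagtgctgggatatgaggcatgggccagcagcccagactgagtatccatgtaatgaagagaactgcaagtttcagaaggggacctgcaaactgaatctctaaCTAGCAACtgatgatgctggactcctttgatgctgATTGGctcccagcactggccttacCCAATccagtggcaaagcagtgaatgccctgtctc

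Dendritic cells also carry class II, so their markers were read in the same libraries. Their summed level over 10 markers was 40.7 to 87.5 FPKQ in wild type and 38.0 to 53.5 in R47H, Xcr1 was below 0.1 FPKQ, and neither of the 2 tested markers passed. Only these 2, Itgax being 1 of them, averaged at least 1 FPKQ. The sum rests mostly on them and cannot stand for dendritic cells as a type. Cd4, which mouse macrophages can express, rose by 1.29 (adjusted p = 5.12e-05), from 4.98, 6.00, 5.12, 6.03 and 6.16 FPKQ in WT Rep6 to Rep10 to 13.7, 17.3, 13.3, 14.1 and 18.6 in R47H Rep1 to Rep5. Of 11 T and NK cell markers, 8 had means below 0.1 FPKQ in these libraries, among them Cd3e, Cd3d and Trac. The summed level of the 11 was 86.7 to 129 FPKQ in wild type and 85.4 to 123 in R47H. It rests mostly on the only 1 with a mean of at least 1 FPKQ, so it is no measure of T and NK cells. The 1 marker tested did not pass (0.05). In bulk RNA, more cells of a type and more RNA per cell cannot be told apart. The class I list moved less: 6 of 16 rose (median 0.23), 1 with sex as a covariate and 2 against WT Rep1 to Rep5.

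Surface receptors of myeloid cells rose in several families. Clec4n (Dectin-2), a C-type lectin for fungal mannans, had the largest rise of all genes named by rule. It was at 9.61, 8.07, 9.27, 9.43 and 11.4 FPKQ in WT Rep6 to Rep10 and 31.8, 44.1, 35.7, 28.1 and 40.8 FPKQ in R47H Rep1 to Rep5, with no overlap (1.80 ± 0.12, SE; limma adjusted p = 1.87e-05). Against WT Rep1 to Rep5 Clec4n rose by 1.53. In its list 9 of 19 rose and 1 fell (median 0.36), among them Clec10a (1.01), Clec4a1 (1.03) and Clec4a3 (0.84). Of the Ms4a genes, membrane proteins whose locus in humans is tied to soluble TREM2, 5 of 7 rose (median 0.45). With sex as a covariate 3 rose, and against WT Rep1 to Rep5 2 rose (median 0.24). Ms4a4a rose by 1.75 (adjusted p = 1.87e-05), or 1.06 against WT Rep1 to Rep5, and Ms4a7 by 0.73 (adjusted p = 0.00116). Ms4a14 (0.45, adjusted p = 0.0330) lost its call with sex as a covariate (adjusted p = 0.0905), with equal sums, against WT Rep1 to Rep5 (0.24, adjusted p = 0.266) and when any library other than WT Rep9 or R47H Rep3 was left out, and Ms4a6d (0.44, adjusted p = 0.00389) lost its call against WT Rep1 to Rep5 (0.27, adjusted p = 0.0575). Among Fc and phagocytic receptors 9 of 20 rose and none fell, beside 8.52% and 6.35% of all tested genes. They include the inhibitory Fc receptor Fcgr2b (0.97, adjusted p = 0.000124), the activating Fcgr4 (0.80, adjusted p = 0.000369) and the inhibitory receptor Cd300a (0.56, adjusted p = 0.000272).

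Mertk, the receptor tyrosine kinase for apoptotic cells, was at 10.1, 11.2, 10.3, 13.7 and 11.9 FPKQ in WT Rep6 to Rep10 and 26.4, 26.3, 21.4, 26.2 and 27.9 FPKQ in R47H Rep1 to Rep5. It rose by 1.10 ± 0.09 (SE; limma adjusted p = 6.70e-05), and by 0.58 against WT Rep1 to Rep5. The C1q chains C1qa, C1qb and C1qc, which start the classical complement path, rose by 0.92, 0.68 and 0.70. Their rises against WT Rep1 to Rep5 were 0.58, 0.41 and 0.35, of which that of C1qc did not pass (adjusted p = 0.0575). Axl, the other receptor of Mertk's family listed, rose by 0.61 (adjusted p = 0.00937) with overlapping groups, and it differed by 0.04 (adjusted p = 0.871) from WT Rep1 to Rep5.

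Some macrophage genes fell. Cx3cr1, the fractalkine receptor of monocytes and resident macrophages, was at 23, 19.8, 17.7, 19.0 and 14.3 FPKQ in WT Rep6 to Rep10 and 9.32, 4.92, 4.25, 8.58 and 9.52 FPKQ in R47H Rep1 to Rep5. There was no overlap (-1.29 ± 0.20, SE; limma adjusted p = 0.00130). Folr2, the folate receptor of tissue macrophages, fell by 0.84 (adjusted p = 0.00122) and Klf4, a transcription factor of monocytes, by 0.93 (adjusted p = 0.000421). Ccr2, the receptor for Ccl2, fell by 0.64 (adjusted p = 0.0255) with overlapping values, and lost its call with sex as a covariate (adjusted p = 0.289) and when any 1 of WT Rep6, WT Rep7, WT Rep8, R47H Rep2 or R47H Rep3 was left out. Cd14, the co-receptor for lipopolysaccharide, fell by 0.50 (adjusted p = 0.00351), and differed by -0.14 (adjusted p = 0.139) against WT Rep1 to Rep5. Csf1r, the CSF-1 receptor and lineage gene, did not pass (0.25, adjusted p = 0.0525). Over the macrophage identity list 6 of 22 rose and 4 fell, beside 8.52% and 6.35% of all tested genes.

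Monocyte and granulocyte markers were read beside these changes. Of 10 monocyte markers, 6 were tested, 1 rose (F13a1) and 2 fell (Ccr2 and Spn), and their summed level was 51.9 to 68.9 FPKQ in wild type and 46.3 to 59.3 in R47H. Of 14 neutrophil and granule markers, 6 were tested and all 6 had positive differences (median 0.52, beside 0.04 over all tested genes). Of these, 2 passed, Csf3r (0.67) and Ngp (0.64). The sum of the 14 markers was 74.0 to 98.3 FPKQ in wild type and 89.2 to 157 in R47H. Among the 14, Ly6g and Retnlg, which define mature neutrophils, were below 0.1. The part of monocytes and granulocytes in the receptor changes was not tested.

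Of 35 tested genes of the lysosome, 20 did not pass, 14 rose and 1 fell (median 0.22). Ctsh, a cysteine cathepsin, rose by 0.76 (adjusted p = 0.000272), Psap, the precursor of the saposins that help degrade sphingolipids, by 0.57 (adjusted p = 0.00319), and Scarb2, a lysosomal membrane receptor, by 0.43 (adjusted p = 0.00163). The small effects were sensitive to scaling and to sex: 5 members rose with libraries set to equal sums and 5 with sex as a covariate, while 19 rose against WT Rep1 to Rep5. Psap lost its call with quantile normalization (adjusted p = 0.0669) and with no filter on low values.

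Secreted and matrix genes included some of the largest single changes. Thbs1, thrombospondin 1, was at 6.66, 5.87, 5.39, 5.05 and 7.82 FPKQ in WT Rep6 to Rep10 and 25.3, 36.6, 12.2, 24.3 and 26.3 FPKQ in R47H Rep1 to Rep5. Even the lowest R47H library, Rep3, lay above all wild types (1.80 ± 0.22, SE; limma adjusted p = 0.000317). Mmp14, a membrane-bound collagenase, and F13a1, the coagulation factor XIII subunit made by macrophages, rose by 1.38 and 1.35, and Tgm2, tissue transglutaminase, by 0.74. Thbs1, F13a1 and Tgm2 rose less against WT Rep1 to Rep5, at 1.28, 0.55 and 0.39. In this list 7 of 26 rose and 2 fell, beside 8.52% and 6.35% of all tested genes, and its median was -0.05, near that of all genes. The chemokine Ccl5 rose by 1.10 (adjusted p = 0.000816). Slc40a1, ferroportin, the exporter of iron, was at 21.2, 24.8, 26.1, 28.7 and 46.0 FPKQ in WT Rep6 to Rep10 and 68.5, 99.5, 75.7, 71.3 and 91.1 FPKQ in R47H Rep1 to Rep5. It rose by 1.47 ± 0.18 (SE; limma adjusted p = 0.000294), and by 0.98 against WT Rep1 to Rep5. In the iron handling list 5 of 13 genes rose.

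Of 21 tested genes of Trem2 signalling, 4 rose and none fell (median 0.07), while with equal sums 0 rose and 2 fell. Syk, the kinase recruited by Tyrobp, was at 96.4, 95.0, 89.5, 104 and 96.1 FPKQ in WT Rep6 to Rep10 and 125, 117, 116, 132 and 128 FPKQ in R47H Rep1 to Rep5. All R47H values were higher (0.36 ± 0.06, SE; limma adjusted p = 0.00181), although the call was lost with equal sums (adjusted p = 0.0778). Inpp5d, the inositol phosphatase SHIP1, rose by 0.25 (adjusted p = 0.00443) but differed by 0.08 (adjusted p = 0.397) from WT Rep1 to Rep5 and lost its call with equal sums. The adaptor Grb2 (0.30, adjusted p = 0.0117) and the exchange factor Vav1 (0.18, adjusted p = 0.0479) lost theirs with sex as a covariate (adjusted p = 0.152 and 0.259) and with equal sums, and Vav1 also in each fit that left out 1 library other than WT Rep9. Tyrobp did not pass (0.28, adjusted p = 0.0561). Of 12 tested genes of the beta-catenin pathway, which Trem2 signalling can stabilise in macrophages, 2 rose, the Wnt co-receptors Lrp6 (0.50, adjusted p = 0.000857) and Lrp5 (0.36, adjusted p = 0.00625). Lrp5 lost its call against WT Rep1 to Rep5 (0.14, adjusted p = 0.295), with sex as a covariate (adjusted p = 0.0646) and with equal sums. Of the 19 tested genes within 1 Mb of Trem2, 2 passed, Kpna2-ps (0.48) and A530064D06Rik (0.83). Both were named after their values were seen, and Kpna2-ps lost its call against WT Rep1 to Rep5 (-0.12, adjusted p = 0.386). Over all tested genes 14.9% were called (8.52% rose and 6.35% fell). The shares called among the signalling, beta-catenin and neighbouring genes lay near that 14.9%.

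Genes of the disease-associated microglia programme, which needs Trem2 in the brain, were counted as a list. Of 24 tested, 6 rose, led by Apoe, and 2 fell, Lpl and Spp1 (osteopontin), beside 8.52% and 6.35% of all tested genes. With WT Rep1 to Rep5 as controls 8 rose and 0 fell, and with equal sums 3 rose and 5 fell, so the balance depends on the controls and the scaling. Spp1 was at 7931, 6408, 7049, 6651 and 7332 FPKQ in WT Rep6 to Rep10 and 5290.3, 2996, 4951, 4354 and 3939.9 FPKQ in R47H Rep1 to Rep5. Its values do not overlap (-0.74 ± 0.14, SE; limma adjusted p = 0.00475), but Spp1 did not pass against WT Rep1 to Rep5 (-0.28, adjusted p = 0.211) or with no filter on low values. Gpnmb and Itgax did not pass (0.11 and -0.49).

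Interferon-stimulated genes varied among the R47H libraries. Relative to the wild-type mean, the list's mean log2 level was 0.22, 0.07, -0.38, 0.65 and 0.67 in R47H Rep1 to Rep5 and 0.20, -0.10, 0.02, -0.31 and 0.19 in WT Rep6 to Rep10. Of these 10 libraries R47H Rep4 and Rep5 were highest and R47H Rep3 lowest. The list varied within KO as well, at 0.47, 0.26, -0.51, 0.36 and -0.15 in KO Rep1 to Rep5 on the same scale. Isg15, a ubiquitin-like protein induced by interferon, was at 62.1, 69.5, 47.9, 89.7 and 89.9 FPKQ in R47H and 70.9, 45.8, 57.5, 37.2 and 62.6 FPKQ in wild type, and did not pass (0.38, adjusted p = 0.234). Of 34 members 2 rose, a share no higher than the 8.52% of all tested genes. They are Irf1 (0.47, adjusted p = 0.000354) and Gbp5 (0.63, adjusted p = 0.0155), of which Irf1 rose by 0.21 against WT Rep1 to Rep5. The call of Gbp5 was lost with sex as a covariate (adjusted p = 0.0782), with equal sums and with no filter on low values. R47H Rep4 and Rep5 also had the lowest Trem2 of these 10 libraries. A link between Trem2 level and interferon-stimulated genes was not tested. Ribosomal protein genes divided the same libraries otherwise, at 0.07, 0.35, 0.33, -0.11 and -0.08 in R47H Rep1 to Rep5 and 0.10, -0.18, 0.12, -0.06 and 0.02 in WT Rep6 to Rep10, with R47H Rep2 and Rep3 highest, and 1 of 32 rose (Rpl10a, 0.36, adjusted p = 0.0279). The call of Rpl10a was lost with sex as a covariate (adjusted p = 0.257), against WT Rep1 to Rep5 (0.11, adjusted p = 0.414) and without any 1 of WT Rep7, WT Rep8, WT Rep10, R47H Rep2 or R47H Rep3.

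**Figure D4:**
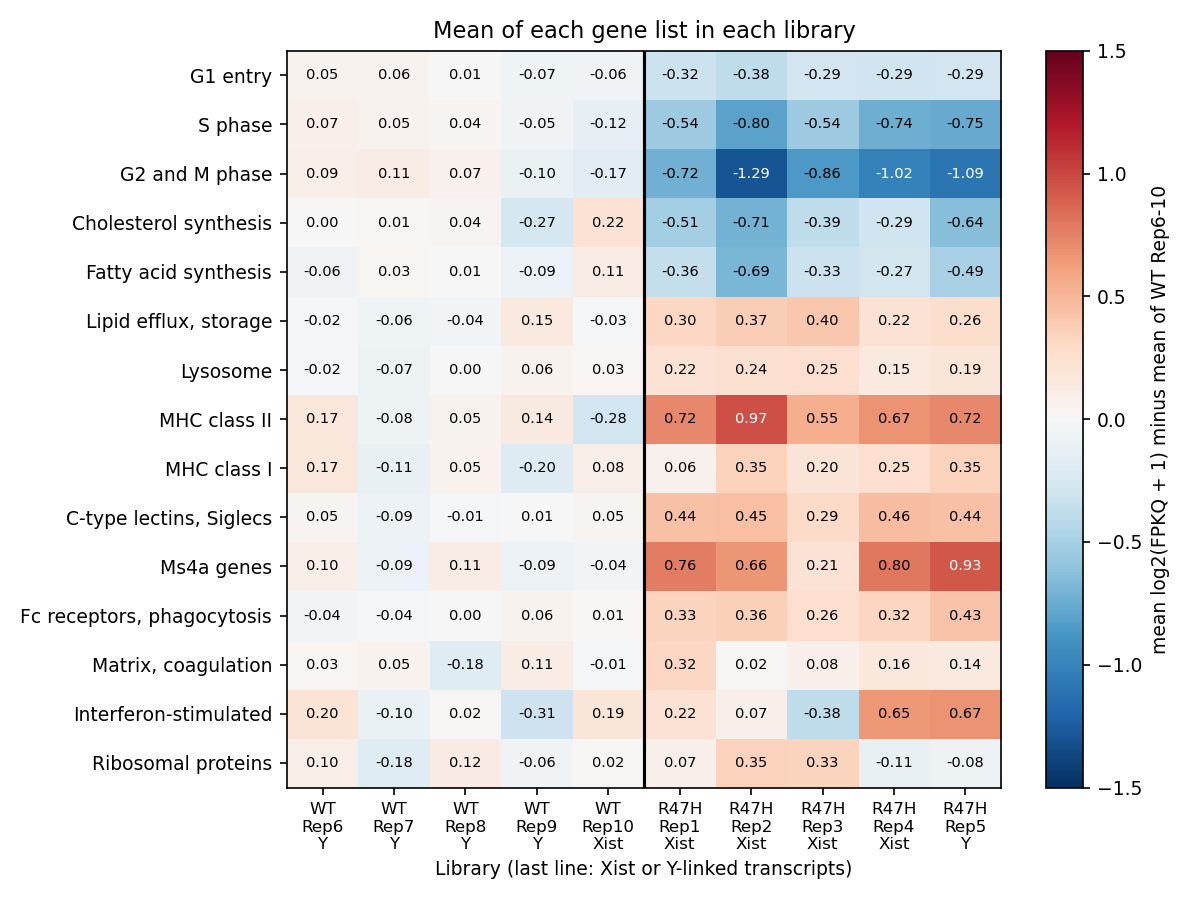
Mean log2(FPKQ + 1) of 15 gene lists in each library (columns) relative to the mean of WT Rep6 to Rep10 (colour scale and printed values), with Xist or Y-linked transcripts under each library. The 3 cell cycle lists are below 0 in all 5 R47H libraries, from -0.29 to -1.29, while interferon-stimulated genes run from -0.38 in Rep3 to 0.67 in Rep5.

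How R47H stands beside loss of Trem2 was read from KO against WT Rep1 to Rep5, a comparison that shares no library with that of R47H. It relies on each set of wild types being the control of its line, and differences between the sets enter any comparison of effects. Sex enters it unequally, since Xist marked 4 R47H libraries against 1 of WT Rep6 to Rep10, but 4 KO libraries against 3 of WT Rep1 to Rep5. In KO 2645 genes rose (24.5%) and 2142 fell (19.8%). The effects of R47H and KO correlated at r = 0.723 across 10801 genes (a description, since genes are not independent). Of the 1606 genes called in R47H, 1352 were called in KO in the same direction, which is 84.2% of the R47H calls and 28.2% of the KO calls. The 9 called in opposite directions and 245 called in R47H alone complete the R47H calls. Over the 479 genes changed at least 2-fold in KO, 472 had the same sign in R47H and the median ratio of the R47H effect to the KO effect was 0.499. A test of the difference between the effects called 1549 genes (14.3%). Of the 581 that were also called in R47H, 514 had the same sign and a smaller effect, 11 the same sign and a larger one, and 56 the opposite sign. With sex as a covariate in all 20 libraries the test of the difference called 1352 genes.

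**Figure D5:**
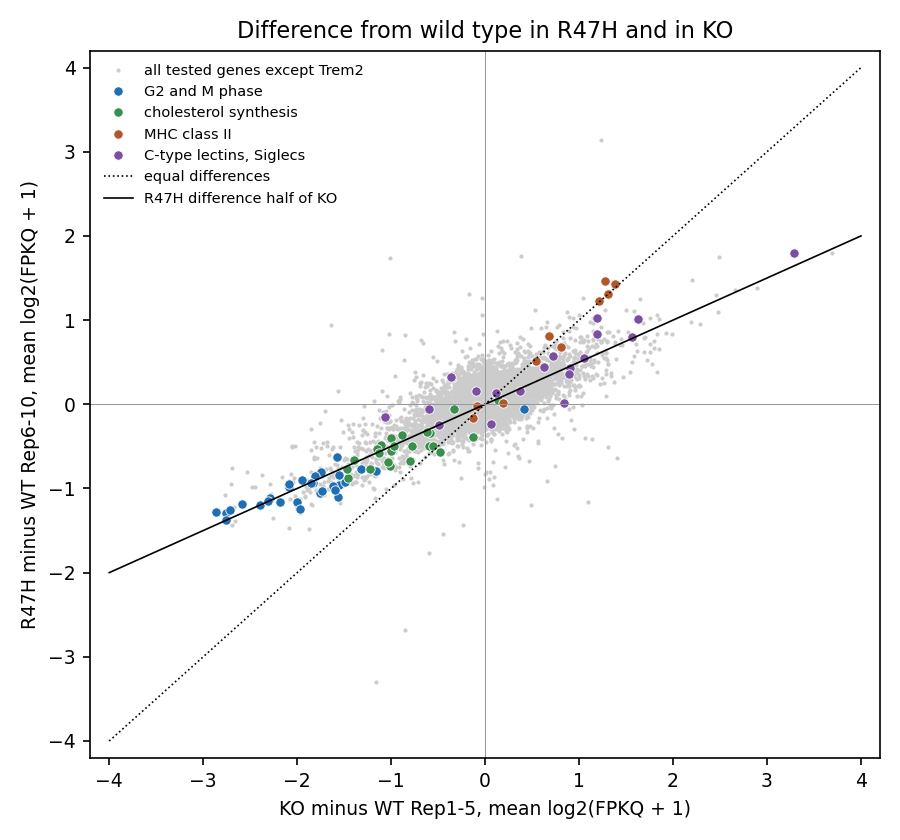
Difference from wild type in KO (horizontal axis) and in R47H (vertical axis), in mean log2(FPKQ + 1), for all tested genes except Trem2 (grey) and the members of 4 lists (coloured: G2 and M phase, cholesterol synthesis, MHC class II, C-type lectins and Siglecs). The dotted line marks equal differences and the solid line an R47H difference 0.5 times that of KO; G2 and M phase genes lie near the solid line (medians -1.002 in R47H and -1.84 in KO) and MHC class II genes near the dotted one (0.74 and 0.74, the R47H median being 0.37 against WT Rep1 to Rep5).

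The effects of R47H and KO were also set side by side for the gene lists. In the G2 and M phase list the median was -1.002 in R47H and -1.84 in KO, and 28 of 30 genes differed between the effects. For S phase the medians were -0.69 and -1.27, with 25 of 30 differing, and for sterol synthesis -0.50 and -0.97, with 10 of 23. In the MHC class II list the medians were 0.74 and 0.74, and limma called 0 of 10 members different between the effects, with 0 at an unadjusted p under 0.05. The R47H median of this list was 0.37 against WT Rep1 to Rep5, the controls of KO. For H2-Ab1 the difference of effects was 0.19 ± 0.27 (SE; adjusted p = 0.670), and the level was 85.1 ± 22.2 in WT Rep6 to Rep10, 235 ± 54.1 in R47H, 139.97 ± 24.4 in WT Rep1 to Rep5 and 345 ± 75.6 FPKQ in KO (SD, n = 5 each).

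Among genes named for the largest difference from KO, Pcp4l1 was at 156 ± 7.20 in WT Rep6 to Rep10, 92.0 ± 7.33 in R47H, 134 ± 14.2 in WT Rep1 to Rep5 and 19.97 ± 2.79 FPKQ in KO. Its effect was -0.75 in R47H and -2.69 in KO (difference 1.94, adjusted p = 3.35e-09). Tk1 had effects of -1.07 and -2.76 (adjusted p = 2.35e-06), and Ccnd1 of -0.94 and -2.71 (adjusted p = 7.55e-07). Kcnj2, an inward potassium channel, did not pass in R47H (-0.07, adjusted p = 0.682) and fell by 1.70 in KO (difference 1.63, adjusted p = 5.26e-07). In the other direction Clec4n, Thbs1 and Mmp14 rose in both, by 1.80, 1.80 and 1.38 in R47H and by 3.29, 3.69 and 2.90 in KO (adjusted p of the difference 4.42e-06, adjusted p = 3.07e-05 and 1.51e-05). Lpl fell by 0.51 in R47H and by 2.05 in KO (difference 1.54, adjusted p = 4.93e-06).

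Of the 56 genes with opposite signs, 49 were higher in R47H than in its wild types. Only 9 genes were called in both R47H and KO in opposite directions, so for most of the 56 the KO effect did not pass. S1pr2, a receptor for sphingosine 1-phosphate, was at 30.2 ± 1.19 in WT Rep6 to Rep10, 34.1 ± 0.874 in R47H, 31.8 ± 1.20 in WT Rep1 to Rep5 and 21.9 ± 1.56 FPKQ in KO. It rose by 0.17 (adjusted p = 0.0334) in R47H and fell by 0.52 in KO (difference 0.69, adjusted p = 1.10e-06), the R47H call being lost against WT Rep1 to Rep5 (adjusted p = 0.175), with sex as a covariate (adjusted p = 0.171), with equal sums and when any library other than WT Rep9 or R47H Rep1 was left out. Btg2, an antiproliferative gene, had effects of 0.31 and -0.21 (adjusted p = 0.00241), and Neat1, the long noncoding RNA of paraspeckles, of 0.75 and -0.32 (adjusted p = 0.0127), with R47H calls that were lost against WT Rep1 to Rep5 (adjusted p = 0.0634 and 0.396). The call of Btg2 was lost with equal sums as well, and that of Neat1 with sex as a covariate (adjusted p = 0.175) and when any 1 of WT Rep6, WT Rep7, WT Rep8, WT Rep10, R47H Rep1 or R47H Rep2 was left out. The effect of KO on Neat1 did not pass (limma adjusted p = 0.196). S1pr2, Btg2 and Neat1 were chosen after their values were seen.

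The 2 sets of wild types lay apart for genes including Tsc22d3, F7 and Fos. Tsc22d3 (GILZ), a glucocorticoid-induced gene, was at 27.9 ± 2.89 in WT Rep6 to Rep10, 47.6 ± 6.09 in R47H, 42.9 ± 3.32 in WT Rep1 to Rep5 and 47.9 ± 3.91 FPKQ in KO. The effect of R47H was 0.75 (adjusted p = 0.000369) against WT Rep6 to Rep10 and 0.14 (adjusted p = 0.307) against WT Rep1 to Rep5. F7, coagulation factor VII, chosen after its values were seen, was at 11.6 ± 1.42 in WT Rep6 to Rep10, 6.54 ± 1.40 in R47H, 6.01 ± 1.38 in WT Rep1 to Rep5 and 5.59 ± 1.04 FPKQ in KO, with effects of -0.75 (adjusted p = 0.00168) and 0.11 (adjusted p = 0.677). Fos, an immediate early gene, fell by 0.53 (adjusted p = 0.00984) against WT Rep6 to Rep10 and rose by 0.40 (adjusted p = 0.0204) against WT Rep1 to Rep5. The call of Fos was also lost with sex as a covariate (adjusted p = 0.118). For these genes the direction or call of the R47H effect rests on which wild types serve as controls.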

How the data were processed

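Poly-A RNA was sequenced by a strand-specific dUTP method with paired reads of 75 bases and at least 35 M reads per library (M, 1e6), per the labels' protocols. Each deposited table gives 51456 gene symbols with a value named FPKQ, read here as FPKM-like, with the scale of each library apparently set by a quantile; its definition is given by none of the sources used. RSEM and GRCm38 are named per the submitters' processing notes, without version. RSEM can divide reads between similar genes. Low values above 0 were taken from 14087 single-transcript genes, 1092 to 2059 values per library. Of these, 84.3% to 87.8% were whole multiples of 1 fragment (within 0.1 fragment). Depth could thus be estimated, but no count test was run. No library pair held identical values.

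The 10802 genes averaging 1 FPKQ or more in these 10 libraries were tested on log2(FPKQ + 1) with limma 3.58.1 (R 4.3.3; lmFit, eBayes with trend), without covariates, with Benjamini-Hochberg adjustment over all tested genes and a threshold of 0.05. This scale understates the fold changes of low genes. All adjusted p-values come from limma; those for KO and for the difference of effects come from a fit of all 20 libraries in 4 groups. Sex as a covariate means Xist or Y status, chosen after seeing the data, as was leaving out R47H Rep2 and Rep3 together. Symbols matched GENCODE M21 for 98.3% of tested genes. Python 3.11.15 with pandas 2.3.3, numpy 2.4.6, scipy 1.17.1 and matplotlib 3.10.9 was used for summaries and figures. The test was tried on simulated data. Alternatives were WT Rep1 to Rep5 or all 10 wild types as controls, other minimum levels, pseudocounts and scalings, robust moderation, library weights and leaving out each library.

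The libraries, gene lists and tests were chosen with earlier results of these data known. Named genes are Trem2, the 15 largest rises and 15 largest falls among called genes without overlap of groups and with a mean in the higher group of at least 13.5 FPKQ (predicted and sex-linked genes left out), the 4 members of each list with the smallest p, and the 6 genes each way that differed most from KO. Other list members given with values, and genes said to be so, were chosen after their values were seen. The replicates are animals, per the labels' protocols.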

Additional observations from a re-analysis of the deposited data

Results flagged for a closer look

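In 10 groups of 5 libraries, among the named genes, 1 library stood apart from the others by Dixon's criterion at 95%, which chance meets in about 1 of 20 groups. In all 336 such groups were looked at. In wild type, Rep7 was low in C1qa (206 FPKQ, others 270.4 to 291), C1qb (1262, others 1554 to 1673) and Rpl10a (316, others 395 to 426). WT Rep9 was low in Cfp, properdin (135, others 162 to 169), and high in Abca1 (27.2, others 16.6 to 19.2), and WT Rep8 was high in Smad3 (3.36, others 2.74 to 2.90). In R47H, Rep3 was low in Mertk (21.4, others 26.2 to 27.9) and Ms4a14 (18.6, others 29.3 to 31.7), Rep5 was low in Naglu, a lysosomal glucosaminidase (63.4, others 73.3 to 77.3), and Rep4 was high in Mgl2, a C-type lectin (10.8, others 5.84 to 6.26).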

How the results depend on the processing

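The number of genes that rose (920) became 390 with equal sums and 339 with sex as a covariate, and ran from 608 to 922 when 1 library was left out, the lowest without WT Rep7. The number that fell (686) became 437 with a minimum mean of 5 FPKQ, 1202 with equal sums and 364 with sex as a covariate, and ran from 485 to 703 with 1 library left out. Genes differing from KO (1549) became 4402 when all 10 wild types served both mutants. Trem2 (-0.27) passed with all 10 wild types (-0.33, adjusted p = 0.0288), equal sums (-0.39, adjusted p = 0.0207), quantile normalization (-0.37, adjusted p = 0.0184) and library weights (-0.37, adjusted p = 0.0435). Without R47H Rep2 and Rep3 the fit also passed (-0.46, adjusted p = 0.0178), but those are the R47H libraries with the highest Trem2, so that fit supports nothing. With 1 library left out it ran from -0.35 to -0.18 and did not pass. The cause of these shifts was not tested. Against WT Rep1 to Rep5 the sign turned for Myc (0.00175), Fos (0.40), Bcl2l11 (-0.00993), Abca1 (-0.0316), F7 (0.11) and Kpna2-ps (-0.12). Of 4064 values of named genes under alternatives, 3708 kept direction and call, 344 lost the call and 12 turned sign.

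R47H Rep1 to Rep5 share no replicate numbers with WT Rep6 to Rep10. Against WT Rep1 to Rep5, same-numbered libraries deviated together only weakly (r = 0.159, 0.111, 0.108, 0.051 and 0.151), so the numbers were not taken to pair them; with a replicate block there, 790 genes rose, 532 fell and Trem2 differed by -0.39, and the sign turned for the same genes, at the same values. Depth weighs most on genes near 1 FPKQ.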

Other observations

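Other lists held some called genes, beside 14.9% of all tested genes. In the list for amino acid supply and the integrated stress response, 1 of 23 rose and 3 fell, a share near that of all genes. The falls were in the serine synthesis genes Phgdh (-0.85, adjusted p = 0.0125) and Psat1 (-0.68, adjusted p = 0.000896) and the mitochondrial folate enzyme Mthfd2 (-0.54, adjusted p = 0.000285). Mthfd2 was at 15.5, 14.4, 14.4, 12.6 and 15.2 FPKQ in WT Rep6 to Rep10 and 10.2, 8.80, 9.84, 9.61 and 9.70 FPKQ in R47H Rep1 to Rep5, without overlap. In the oxidative stress list 5 of 17 rose, including catalase (Cat, 0.56, adjusted p = 0.000770) and glutathione reductase (Gsr, 0.46, adjusted p = 0.00137), and 2 rose with sex as a covariate. Of 18 inflammatory genes 3 rose, including Il1b (0.86, adjusted p = 0.00121) and Tnfaip2 (0.50, adjusted p = 0.000272). Il1b was at 1.81, 1.22, 2.11, 1.30 and 1.13 FPKQ in WT Rep6 to Rep10 and 4.04, 4.02, 2.78, 2.88 and 4.13 FPKQ in R47H Rep1 to Rep5, low levels with no overlap. Of 20 genes of the Bcl2 family 5 rose and 1 fell. The fall was in the survival gene Bcl2 (-0.33, adjusted p = 0.0209), a call lost with sex as a covariate and against WT Rep1 to Rep5, and the rises include the death-promoting Bmf (0.49, adjusted p = 0.00491) and Bcl2l11 (0.33, adjusted p = 0.0126), both of which did not pass against WT Rep1 to Rep5 (adjusted p = 0.0824 and 0.945) or with equal sums, and the survival gene Mcl1 (0.28, adjusted p = 0.00557), whose effect in KO was 0.02 (difference 0.26, adjusted p = 0.00756); its R47H call was lost with sex as a covariate (adjusted p = 0.0505). Dusp2, a phosphatase of MAP kinases, rose by 0.67 (adjusted p = 0.000235) and Dusp6, another, fell by 0.68 (adjusted p = 0.000295). Of 14 interleukin 10, TGF-beta and glucocorticoid targets 4 rose, Tsc22d3 by 0.75, and 1 fell, Fkbp5 by 0.74 (adjusted p = 0.000151).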
